A study of Mus musculus with 2 samples.

Results

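The genes described here are 10 of the vascular endothelial growth factor (VEGF) system and of the vessels that answer it. They are the ligand genes Vegfa and Vegfb, the receptor genes Kdr, Flt1, Nrp1 and Tek, the gene for the Tek ligand Angpt2, and the vessel genes Plvap, Esm1 and Pecam1. They were chosen by name, with earlier results of these data known, and all 10 were found among the 31053 genes of the deposited feature table. Pancreatic islets of male C57/B6 mice aged 16 weeks were dissociated, and each of 2 groups gave 1 droplet-based single-cell RNA library. For the wild type (WT), the labels name no diet. The high-fat diet (HFD) library came from mice given food with 60% of its calories as fat for 10 weeks, from the age of 6 weeks. The islets of several mice were pooled within each group, so diet, islet preparation and library cannot be told apart, the groups could not be tested against each other.

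Islets are densely supplied with capillaries whose endothelium is perforated by fenestrae. Endocrine cells secrete VEGF-A, and the endothelial cells beside them carry its receptors. KDR is the main signalling receptor for VEGF-A, FLT1 binds VEGF-A and VEGF-B with high affinity and acts largely as a decoy, and NRP1 is a co-receptor. TEK (also called TIE2) is the receptor for the angiopoietins, among which ANGPT2 is released by endothelial cells and loosens the contact with pericytes. PLVAP forms the diaphragms of fenestrae and caveolae, ESM1 is a secreted proteoglycan induced by VEGF, and PECAM1 is an adhesion protein of endothelial junctions.

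The WT library held 73843674 unique molecular identifiers (UMIs, 1 per captured transcript) over 3895 barcodes and the HFD library 94375138 over 8951. After the filters 2498 WT and 6672 HFD cells remained, and 9 barcodes occurred in both libraries. Levels are given as counts per 1e6 UMIs of the same cells (CPM) with exact Poisson 95% intervals, and HFD to WT ratios with exact conditional 95% intervals. All intervals cover counting error only, not the spread between mice. The members, like the hormone genes, were kept out of the clustering that defined the cell classes.

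β-like cells numbered 1907 in WT and 5813 in HFD, α-like cells 58 and 189, and δ-like cells 48 and 102. A cluster of endothelial-like cells held 107 WT and 83 HFD cells, and all 10 endothelial markers were found in it. Their summed level was 11386 CPM in WT and 10806 CPM in HFD, against 4.75 and 4.73 CPM in β-like cells. A second vessel cluster carried endothelial markers (7815 and 9340 CPM) together with pericyte markers (2917 and 3093 CPM). It is called endothelial-pericyte-like (55 WT and 69 HFD cells) and is kept apart. The rule for this name was at least 3 detected endothelial and at least 3 detected pericyte markers. Its 10 leading genes held the pericyte marker Rgs5 and the members Flt1, Esm1 and Kdr, but no endothelial marker of the fixed list. Pericyte markers also differed within the endothelial-like cluster, with 262 CPM in WT beside 534 CPM in HFD. Insulin UMIs made up 0.511% of WT and 5.07% of HFD UMIs in endothelial-like cells, but 5.32% and 1.30% in endothelial-pericyte-like cells. The median share per cell was higher in HFD in both clusters. It was 0.588% in WT and 1.56% in HFD endothelial-like cells, and 0.307% and 0.760% in endothelial-pericyte-like cells. The part of pericyte and insulin RNA in the differences below was not tested, beyond the values given beside them.

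Reference promoter windows were read for the ligand and for the endothelial genes that follow one another most closely across cell classes. RefSeq starts were matched for 7 of the 10 members, and Angpt2, Plvap and Pecam1 had no entry. Each line gives the 250 bases before the start on GRCm38.p6, in the direction of the gene, with the core of the hypoxia response element (ACGTG or GCGTG on either strand) in capitals. The Vegfa window, before the outer of its 2 listed starts, is chr17:46032378-46032627 (minus strand), that of Kdr chr5:75978456-75978705 (minus), that of Flt1 chr5:147726012-147726261 (minus) and that of Esm1 chr13:113209409-113209658 (plus).
Vegfa: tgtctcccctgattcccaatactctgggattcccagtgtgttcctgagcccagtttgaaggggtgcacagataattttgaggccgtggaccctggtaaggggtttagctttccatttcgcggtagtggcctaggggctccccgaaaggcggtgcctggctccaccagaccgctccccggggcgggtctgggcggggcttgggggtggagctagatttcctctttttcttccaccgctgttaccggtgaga
Kdr: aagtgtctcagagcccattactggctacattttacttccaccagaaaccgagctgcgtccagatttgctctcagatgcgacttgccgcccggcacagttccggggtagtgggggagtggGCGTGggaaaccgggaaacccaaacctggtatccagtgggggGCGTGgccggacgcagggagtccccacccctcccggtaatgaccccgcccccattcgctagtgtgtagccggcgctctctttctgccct
Flt1: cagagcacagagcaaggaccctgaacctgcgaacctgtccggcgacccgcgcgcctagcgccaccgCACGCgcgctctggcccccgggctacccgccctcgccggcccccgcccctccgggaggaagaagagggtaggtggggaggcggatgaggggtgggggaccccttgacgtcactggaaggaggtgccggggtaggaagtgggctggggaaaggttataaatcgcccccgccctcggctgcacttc
Esm1: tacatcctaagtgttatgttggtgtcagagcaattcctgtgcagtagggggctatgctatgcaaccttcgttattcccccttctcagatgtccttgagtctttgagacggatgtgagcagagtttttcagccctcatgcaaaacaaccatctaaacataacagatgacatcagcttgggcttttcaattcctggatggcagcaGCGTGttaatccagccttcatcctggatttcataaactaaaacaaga

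The core occurred 2 times in the Kdr window and 1 time each in those of Flt1 and Esm1, and these letters were not in the Vegfa window shown. They occurred 2 times in the window before the inner Vegfa start (chr17:46025164-46025413), which lies within the span of the Vegfa gene itself. They also occurred 2 times in the window of Vegfb and 1 time in that of Nrp1, and not in that of Tek. Of all 32851 promoter windows of this length, 38.6% held it. The ETS core (GGAA on either strand), a motif bound by a family of factors active in endothelial cells, occurred 6 times in the Vegfa window, 4 times each in those of Kdr and Flt1 and 3 times in that of Esm1, while 93.5% of all windows held it, at a median of 3 matches. These matches describe the sequence and are not sites shown to be bound.

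The ligand side was examined first, to see which cells held Vegfa RNA. Vegfa (ENSMUSG00000023951, chr17:46016993-46032369 of GRCm38, minus strand) was found in every endocrine class, and nearly all of it lay in the numerous β-like cells. Of the Vegfa UMIs in kept cells, 95.5% in WT and 98.4% in HFD lay in endocrine classes, and 92.2% and 96.9% in β-like cells alone. Per UMI of all genes, hormones included, the order of the endocrine classes differed between the libraries. In WT the level was 75.5 CPM (73.4 to 77.7) in β-like cells, 84.3 CPM (66.5 to 105) in α-like cells and 124 CPM (91.5 to 164) in δ-like cells. The WT β-like and α-like intervals overlapped, and the δ-like interval lay above that of β-like cells. In HFD the β-like level (51.6 CPM, 49.98 to 53.2) lay above that of α-like cells (30.4 CPM, 20.5 to 43.4) and within the interval of δ-like cells. This order depended on the UMIs counted, since insulin made up 60.35% of WT and 56.84% of HFD β-like UMIs. Without hormone and mitochondrial genes, Vegfa in WT was 245 CPM in β-like and 153 CPM in α-like cells. In HFD these levels were 158 and 53.2 CPM, so β-like cells then stood above α-like cells in both libraries. PP-like cells stood lower than β-like cells in WT, at 23.3 CPM (8.55 to 50.7), and held 13.8 CPM (1.67 to 49.9) in HFD, on 6 and 2 UMIs.

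Per UMI of all genes, hormones included, duct and stroma carried Vegfa at endocrine levels or above. Insulin made up only 1.74% of WT ductal-like and 0.441% of WT fibroblast-like UMIs, against 60.35% in WT β-like cells. Without hormone and mitochondrial genes the WT β-like level was 245 CPM, and such values for duct and stroma are not given here. Ductal-like cells held 143 CPM in WT (121 to 169) and 187 CPM in HFD (133 to 256), and fibroblast-like cells held 96.7 CPM (65.2 to 138) and 191 CPM (87.4 to 363). The 2 vessel clusters stood low, with 5 WT and 3 HFD UMIs in endothelial-like cells (8.09 and 14.6 CPM) and 27.6 and 21.2 CPM for endothelial-pericyte-like cells. Insulin RNA that reached endothelial-like cells from β-like cells would bring 0.639 CPM of Vegfa in WT and 4.60 CPM in HFD if both travelled together. In α-like cells it would bring 13.7 CPM in WT and 3.11 CPM in HFD, of the 84.3 and 30.4 CPM measured. T-like cells, which should hold little Vegfa, had 0 UMIs among 317608 in HFD, which allows up to 9.45 CPM.

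**Figure D1:**
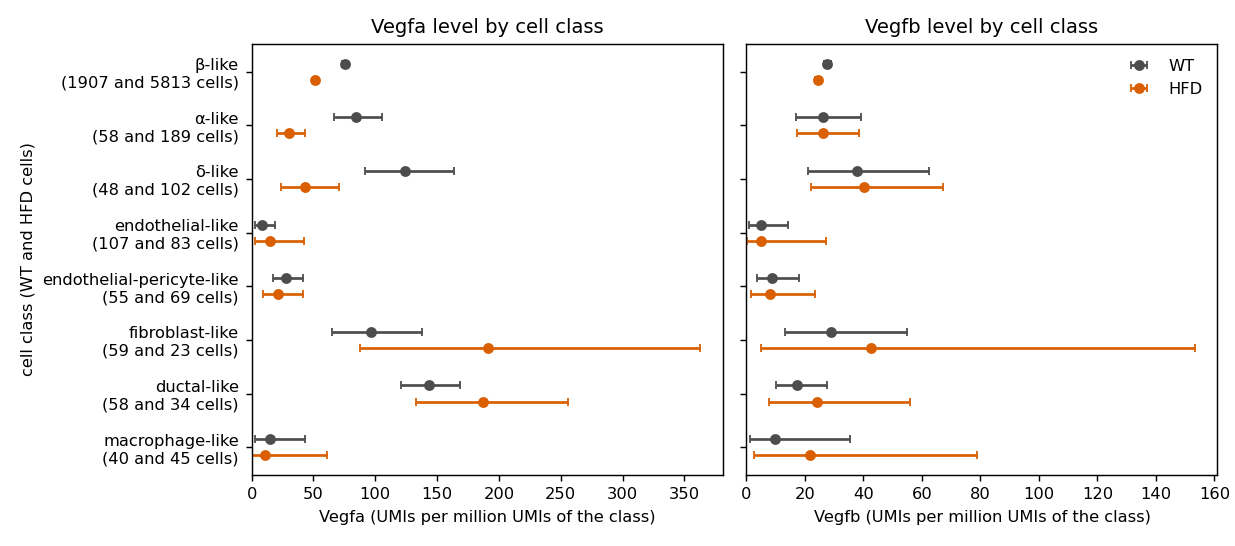
Levels of Vegfa (left) and Vegfb (right) in CPM of each cell class, with WT in grey and HFD in orange; points are sums over the cells of 1 library and bars are Poisson 95% intervals. Vegfa in HFD lies below WT in the β-like, α-like and δ-like classes (51.6 against 75.5 CPM in β-like cells) and not in ductal-like or fibroblast-like cells, whereas the Vegfb intervals of α-like and δ-like cells overlap.

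Vegfa was lower in HFD in the 3 main endocrine classes. In β-like cells it was 75.5 CPM in WT and 51.6 CPM (49.98 to 53.2) in HFD, on 4740 and 4047 UMIs, and the ratio was 0.683 (0.655 to 0.712). In α-like cells it was 84.3 CPM in WT and 30.4 CPM (20.5 to 43.4) in HFD, with a ratio of 0.360 (0.228 to 0.556). In δ-like cells it was 124 CPM in WT and 42.9 CPM (24.0 to 70.8) in HFD, with a ratio of 0.347 (0.181 to 0.629). The intervals of the 2 libraries did not overlap in any of these classes. Median depth differed between WT and HFD, at 11693 and 4544 UMIs in α-like cells and 7225 and 2892 UMIs in δ-like cells. With at most 15000 UMIs per barcode the α-like ratio was 0.509 (0.289 to 0.902). Only β-like cells were split into depth bins. Among all genes with at least 10 UMIs, 7.46% in α-like and 8.15% in δ-like cells were lower in HFD by at least 2-fold, as Vegfa was in both. With only α-like and δ-like cells of at most 10% insulin UMIs, the ratios were 0.474 (0.277 to 0.803) and 0.291 (0.130 to 0.589). Outside the endocrine classes the ratio was 1.31 (0.893 to 1.88) in ductal-like and 1.98 (0.825 to 4.27) in fibroblast-like cells, and both intervals included 1.

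The β-like cells of the libraries differed in depth, with a median of 29560 UMIs per cell in WT and 11928 in HFD, and so Vegfa was also compared at like depth. Between 10000 and 15000 UMIs per cell, WT held 98.6 CPM and HFD 47.6 CPM (ratio 0.482, 0.393 to 0.598). Between 15000 and 30000 UMIs the values were 84.2 and 50.7 CPM (0.603, 0.562 to 0.647), and above 30000 UMIs they were 71.8 and 43.3 CPM (0.604, 0.521 to 0.695). Below 10000 UMIs the WT cells were few. The ratio was 0.853 (0.586 to 1.29) between 5000 and 10000 UMIs with 54 WT cells, and 1.23 (0.751 to 2.08) up to 5000 UMIs with 101 WT cells.

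The difference was not uniform over the β-like clusters. Vegfa was lower in HFD in 8 of 10 clusters, and in 5 of these the interval lay below 1. Ratios in those 5 were 0.867 and 0.794 in clusters 0 and 5, 0.610 in cluster 12, and 0.536 and 0.528 in clusters 103 and 104. In clusters 1, 2, 7, 11 and 115 the interval included 1, with ratios between 0.751 and 1.25. Clusters 2, 7 and 11 were mostly HFD cells (661, 1313 and 1463, against 56, 91 and 65 WT cells), and their Vegfa level was low in both libraries, between 38.6 and 53.7 CPM. When each cluster was given the same weight, the β-like ratio was 0.780 in place of 0.683, so the size of the difference depended on how many cells each cluster held.

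**Figure D2:**
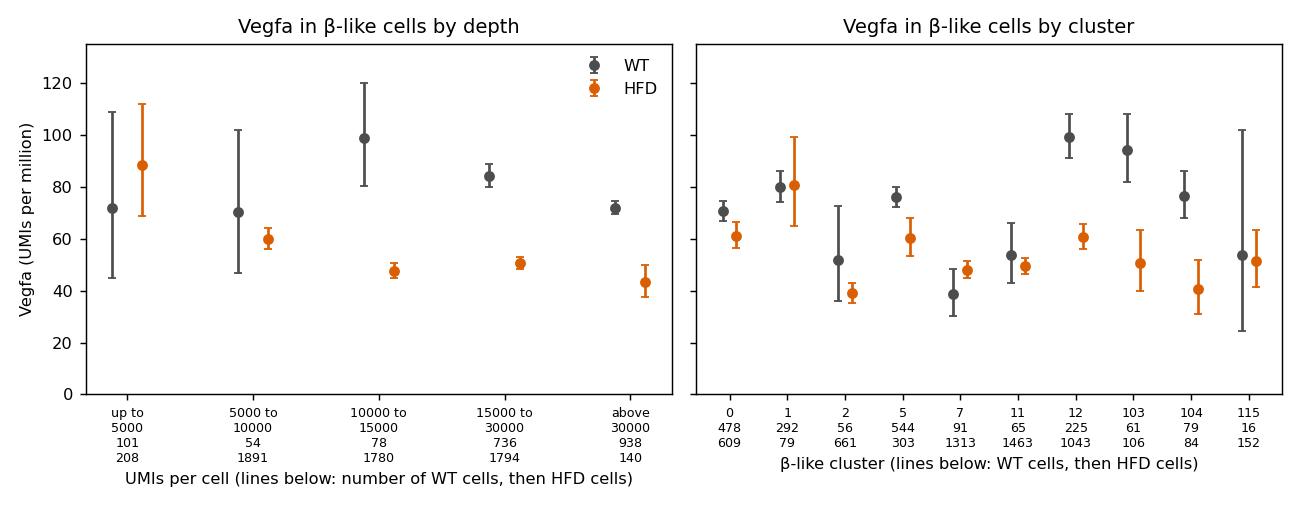
Vegfa in β-like cells, in CPM, by UMIs per cell (left) and by cluster (right), with WT in grey and HFD in orange; bars are Poisson 95% intervals, and the numbers of WT and HFD cells stand under each position. HFD lies below WT in each of the 3 bins above 10000 UMIs, while clusters 1 (79.9 CPM in WT and 80.5 CPM in HFD) and 115 (53.6 and 51.4 CPM) hold close levels and cluster 7 has the highest ratio (38.6 and 48.1 CPM).

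Vegfb (ENSMUSG00000024962, chr19:6982473-6987651, minus strand) encodes a ligand that binds FLT1 and NRP1 but not KDR. It was 27.7 CPM in WT and 24.4 CPM in HFD β-like cells, a ratio of 0.883 (0.827 to 0.943). Both ligands had intervals below 1 in β-like cells, as had 22.8% of all genes there. The Vegfb direction also rested on the weight of the clusters. The ratio was above 1 in 7 of 10 β-like clusters and below 1 in clusters 12 and 104. Its interval lay above 1 in cluster 0 (1.24, 1.08 to 1.43) and below 1 in cluster 12 (0.738, 0.609 to 0.896), and with equal weights it was 1.15. In α-like cells Vegfb was 26.3 CPM in both libraries (1.002, 0.553 to 1.82), and in δ-like cells it was 37.9 and 40.1 CPM (1.06, 0.473 to 2.35). In the endothelial-like cluster 3 WT and 1 HFD UMIs of Vegfb were found.

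On the receiving side, most UMIs of each of the 8 vessel members lay in the 2 vessel clusters. These clusters held 99.1% of the WT and 98.2% of the HFD UMIs of Kdr (ENSMUSG00000062960, chr5:75932827-75978458, minus strand), and 98.8% and 98.5% of those of Flt1 (ENSMUSG00000029648, chr5:147561604-147726011, minus strand). For Plvap the shares were 98.3% and 98.4%, for Esm1 98.3% and 97.7%, for Tek 95.7% and 95.2%, and for Nrp1 94.1% and 96.9%. For Pecam1 the shares were lower in HFD, with 96.6% of its WT but 88.8% of its HFD UMIs there, and 8.26% of the latter in β-like and 2.39% in T-like cells. β-like cells held all 8 genes at trace levels, from 0.0159 CPM for Tek to 0.988 CPM for Angpt2 in WT. For 7 of the 8 these were at most 0.0690% of the level in vessel cells. For Angpt2 they were 0.879% in WT and 0.304% in HFD, and β-like cells with 62 WT and 45 HFD UMIs supplied 27.3% and 28.9% of all Angpt2 UMIs.

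Nrp1 (ENSMUSG00000025810, chr8:128358604-128503363, plus strand) reached further than the other receptors. Fibroblast-like cells held 67 WT and 6 HFD UMIs of it (216 and 127 CPM) and macrophage-like cells 8 and 2 UMIs (39.1 and 21.8 CPM). Vessel RNA also occurred in WT ductal-like cells, with 48.4 CPM of Plvap and 26.2 CPM each of Flt1 and Nrp1, but hardly in HFD ductal-like cells, with 1 UMI of Plvap and 0 of Flt1, Nrp1 and Kdr.

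**Figure D3:**
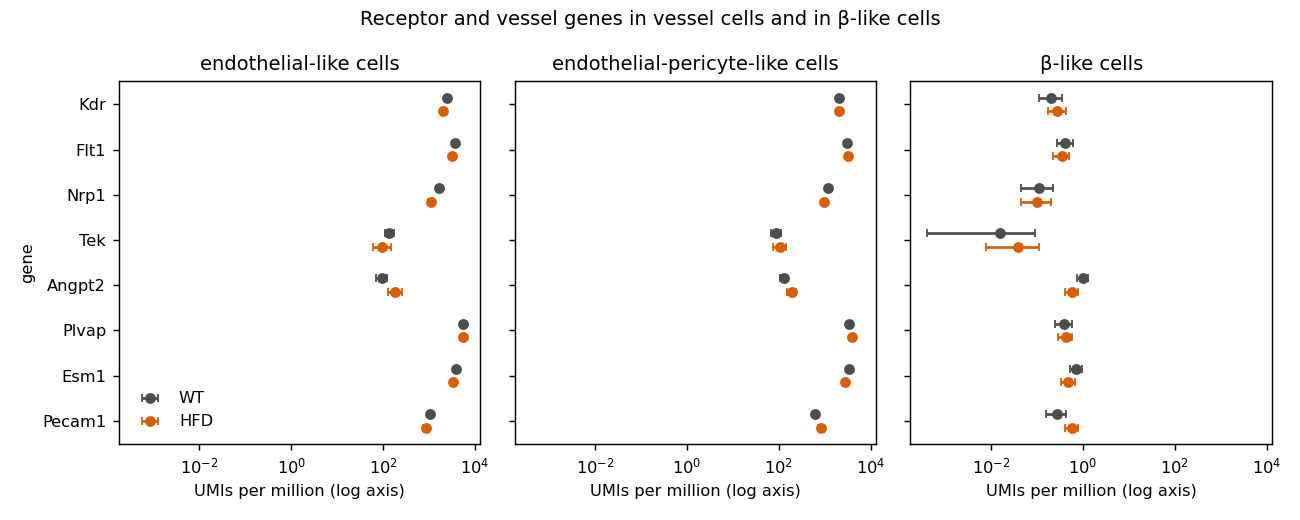
Levels of the 8 receptor and vessel genes in endothelial-like, endothelial-pericyte-like and β-like cells, in CPM on a log axis, with WT in grey and HFD in orange and Poisson 95% intervals as bars. All 8 genes lie near or above 90 CPM in both vessel clusters (87.9 CPM, Tek in WT endothelial-pericyte-like cells, is the lowest) and below 1 CPM in β-like cells.

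Kdr and Flt1 were lower in HFD in the endothelial-like cluster and not in the other vessel cluster. Kdr was 2473 CPM in WT and 2014 CPM in HFD endothelial-like cells (1528 and 415 UMIs; ratio 0.814, 0.729 to 0.908). In endothelial-pericyte-like cells it was 2062 and 2068 CPM (1.003, 0.920 to 1.09). Flt1 was 3778 and 3144 CPM in endothelial-like cells (0.832, 0.762 to 0.908) and 3025 and 3220 CPM in endothelial-pericyte-like cells (1.06, 0.993 to 1.14). Both receptors thus lay between 2014 and 3778 CPM in every vessel sum, and with the clusters joined their ratios were 0.914 (0.854 to 0.977) and 0.952 (0.902 to 1.01). In the endothelial-like cells with the lower insulin shares of their own library, the Kdr ratio was 0.915 (0.801 to 1.04). The intervals also reached or passed 1 under TMM and median-of-ratios scaling, for Kdr at a ratio of 0.905 (0.810 to 1.01) under the latter.

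Nrp1 was lower in HFD in both clusters. It was 1687 CPM in WT and 1092 CPM in HFD endothelial-like cells (1042 and 225 UMIs; 0.647, 0.558 to 0.748). In endothelial-pericyte-like cells it was 1151 and 974 CPM (0.847, 0.748 to 0.957). Joined, the ratio was 0.734, and under all 12 other processing choices run on endothelial-like cells it stayed between 0.631 and 0.780, with an interval below 1 in the 11 that gave one.

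The angiopoietin pair was less abundant and less certain. Tek (ENSMUSG00000006386, chr4:94739289-94874976, plus strand) was 138 CPM in WT and 97.1 CPM in HFD endothelial-like cells on 85 and 20 UMIs (0.705, 0.410 to 1.16). In endothelial-pericyte-like cells it was 87.9 and 106 CPM (1.21, 0.798 to 1.81), so that neither interval excluded 1. Angpt2 (ENSMUSG00000031465, chr8:18690263-18741562, minus strand) was higher in HFD in both clusters. It was 93.9 CPM in WT and 184 CPM in HFD endothelial-like cells on 58 and 38 UMIs (1.96, 1.27 to 3.01), and 127 and 191 CPM in endothelial-pericyte-like cells on 101 and 72 UMIs (1.51, 1.10 to 2.06). These UMIs were spread over cells, with at most 12.1% of a sum in 1 cell. The Angpt2 ratio in endothelial-like cells was between 1.51 and 2.60 under the 12 other choices, and its interval included 1 under 1 of them, at least 1000 genes per cell (1.51, 0.610 to 3.28).

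The fenestra and junction genes took unlike courses. Plvap (ENSMUSG00000034845, chr8:71497765-71511752, minus strand) was 5428 CPM in WT and 5381 CPM in HFD endothelial-like cells (0.991, 0.926 to 1.06), with a ratio above 1 under 10 of the 12 other choices, TMM and median-of-ratios scaling among them. In endothelial-pericyte-like cells it was 3345 and 3897 CPM (1.17, 1.09 to 1.24). Esm1 (ENSMUSG00000042379, chr13:113209659-113218098, plus strand) was lower in HFD in both clusters, at 3794 and 3353 CPM in endothelial-like cells (0.884, 0.811 to 0.962) and 3291 and 2732 CPM in endothelial-pericyte-like cells (0.830, 0.772 to 0.893), although in endothelial-like cells the ratio was 1.01 with each cell weighted alike and the interval included 1 under TMM and median-of-ratios scaling. Pecam1 (ENSMUSG00000020717, chr11:106654217-106750628, minus strand) went opposite ways. It was 1030 and 869 CPM in endothelial-like cells (0.844, 0.711 to 0.997), 624 and 810 CPM in endothelial-pericyte-like cells (1.30, 1.12 to 1.5), and its joined ratio was 1.04 (0.930 to 1.15). The interval of Pecam1 in endothelial-like cells included 1 under each of the 11 other choices that gave one.

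Counted over the 8 vessel members in endothelial-like cells, 5 had an interval below 1 and 1 had an interval above 1. Among all 7387 genes tested there, 7% had an interval below 1 and 4.79% above 1. The members have far more UMIs than most genes and therefore narrow intervals, and their median log2 ratio was -0.26 beside -0.15 over all genes. None of the 8 differed by 2-fold. Under either TMM or median-of-ratios scaling the count was 1 below 1 (Nrp1) and 2 above 1 (Angpt2 and Plvap), so that the share of members counted lower depended on the scaling. Both scalings raised every ratio in endothelial-like cells. The shares of all genes under them are not given here, so these rescaled counts have none to stand beside. In endothelial-pericyte-like cells 2 members had an interval below 1 and 3 above 1, against 4.96% and 6.77% of 8475 genes, with a median log2 ratio of 0.16 beside -0.04. Among genes with at least 100 UMIs, nearer to the members in depth, the median was -0.04 in endothelial-like and 0.10 in endothelial-pericyte-like cells.

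**Figure D4:**
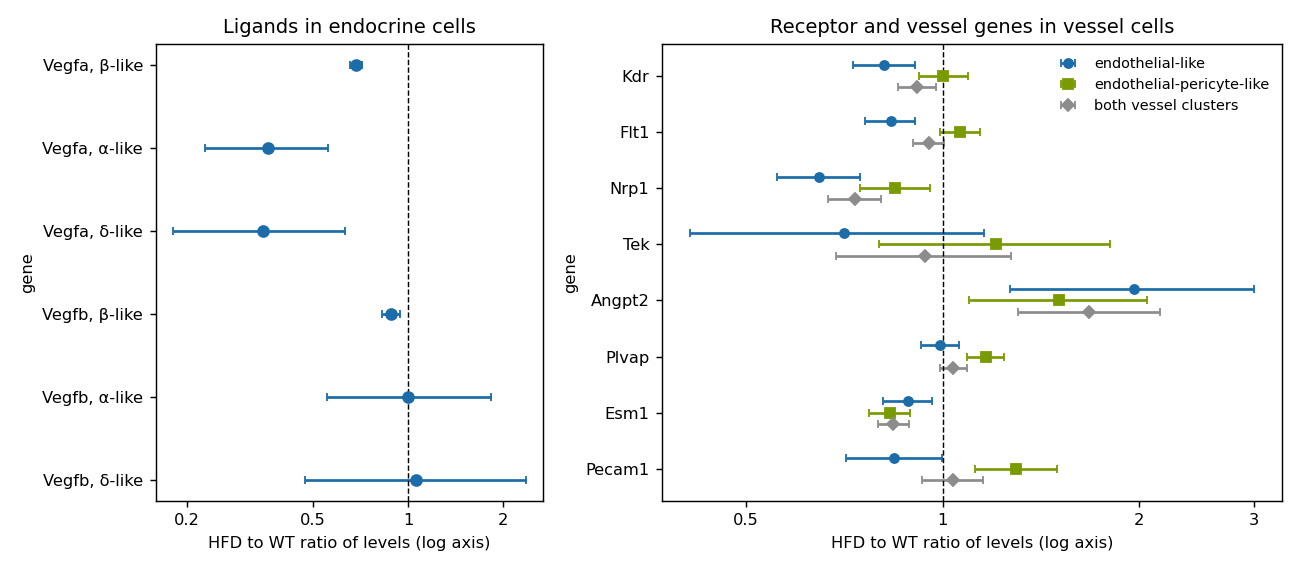
HFD to WT ratios on a log axis with exact conditional 95% intervals, for the ligands in endocrine classes (left) and the 8 receptor and vessel genes in endothelial-like cells, endothelial-pericyte-like cells and both together (right); the dashed line marks a ratio of 1. Vegfa lies left of the line in all 3 endocrine classes (0.683, 0.360 and 0.347), Nrp1 and Esm1 lie left of it and Angpt2 right of it in both vessel clusters, and Pecam1 lies on opposite sides.

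Cell by cell at a depth of 2000 UMIs, Kdr, Flt1 and Nrp1 UMIs were found in most vessel cells, and those of Tek and Angpt2 in a minority. With every cell thinned to 2000 UMIs, 96.0% of 99 WT endothelial-like cells and 100% of 43 HFD endothelial-like cells had a Kdr UMI, after 8 WT and 40 HFD cells below that depth were left out. In macrophage-like cells 0 of 38 WT and 0 of 25 HFD cells had one, which allows up to 7.89% and 12%. For Flt1 the shares of endothelial-like cells were 96.0% and 95.3%, and for Nrp1 89.9% and 81.4%. A Tek UMI was found in 26.3% of WT (17.9 to 36.1) and 25.6% of HFD endothelial-like cells (13.5 to 41.2), and in 18.2% and 20.6% of endothelial-pericyte-like cells. An Angpt2 UMI was found in 11.1% of WT (5.68 to 19.0) and 27.9% of HFD endothelial-like cells (15.3 to 43.7), and in 20% (10.4 to 33.0) and 29.4% (19.0 to 41.7) of endothelial-pericyte-like cells. The Tek and Angpt2 intervals of the libraries overlapped in both clusters. Without thinning, the Angpt2 shares of endothelial-like cells were 27.1% and 28.9%, at median depths of 4256 and 2176 UMIs. In endothelial-pericyte-like cells the unthinned shares were 61.8% in WT and 46.4% in HFD for Angpt2, and 60% and 40.6% for Tek. Median depths there were 13681 and 5602 UMIs.

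Esm1 was more uneven than Kdr over single endothelial-like cells. Its quartiles over single endothelial-like cells were 1271 and 5504 CPM in WT and 997 and 5576 CPM in HFD, while those of Kdr were 1904 and 3034 CPM in WT and 1235 and 2760 CPM in HFD. The highest cell reached 13757 CPM of Esm1 in WT and 11710 CPM in HFD.

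For Vegfa, 13.5% of 1893 thinned WT β-like cells (11.96 to 15.1) and 10.0% of 5801 HFD β-like cells (9.24 to 10.8) had a UMI. Without thinning, at the median depths given above, these shares were 81.1% and 47.5%. In macrophage-like cells 2 of 38 thinned WT cells had one (5.26%, 0.644 to 17.8), an interval that includes the WT β-like share. None of 25 thinned HFD macrophage-like cells had one, which allows up to 12%. Unthinned median depths in this class were 5016 and 2050 UMIs. In T-like cells 0 of 43 thinned HFD cells had one, which allows up to 6.98%. In δ-like cells the thinned shares were 21.7% of 46 WT (10.95 to 36.4) and 8.60% of 93 HFD cells (3.79 to 16.25). In α-like cells they were 13.8% of 58 WT (6.15 to 25.4) and 6.49% of 185 HFD cells (3.40 to 11.06). At this depth the intervals of the libraries overlapped in both classes.

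The other genes of the system were taken from 5 lists. In β-like cells, 2.45% of all 14391 genes tested were higher and 3.95% lower in HFD by at least 2-fold. Of 16 hypoxia response genes 13 were tested in β-like cells, and none passed 2-fold in either direction, with a median log2 ratio of -0.03 beside -0.03 for all genes. Pgk1, a glycolytic enzyme, was 42.7 CPM in WT and 62.1 CPM in HFD (1.45, 1.39 to 1.52), and the mitophagy gene Bnip3 and the kinase Pdk1 had ratios of 1.09 and 1.18 with intervals above 1. The demethylase Kdm3a had a ratio of 0.869 (0.764 to 0.989). Vegfa, which is also induced by hypoxia, was counted apart from this list.

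Among 10 regulators of Vegfa, 1 passed 2-fold in β-like cells. Ppargc1a, a coactivator of mitochondrial genes, was 7.42 CPM in WT and 18.0 CPM in HFD (2.42, 2.18 to 2.70). Atf4, a stress response factor, and Egln2, an oxygen sensor, had ratios of 1.15 and 1.10 with intervals above 1, and Esrra, the nuclear receptor partner of Ppargc1a, 0.803 (0.672 to 0.960). Hif1a was 20.7 and 20.1 CPM (0.968, 0.899 to 1.04). The median log2 ratio of the 10 was 0.04. In endothelial-like cells 7 were tested and none passed 2-fold, while the HIF genes differed in direction. Hif1a was 97.1 and 155 CPM (1.599, 1.01 to 2.50) and Epas1, the endothelial HIF subunit, 709 and 577 CPM (0.814, 0.659 to 0.9995), an interval that included 1 under TMM and median-of-ratios scaling. In endothelial-pericyte-like cells 9 were tested, and the Hif1a and Epas1 ratios were 1.92 and 0.857. That of the transcription factor Sp1 was 0.518 (0.251 to 0.988), and these 3 were all whose intervals excluded 1. Of all genes there, 6.77% had an interval above 1 and 4.96% below 1.

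In endothelial-like cells, 4.1% of genes were higher and 15.6% lower in HFD by at least 2-fold. Of 16 hypoxia response genes 9 were tested there, with 1 higher and 2 lower by 2-fold and a median log2 ratio of 0.15 beside -0.15 for all genes. The glucose transporter Slc2a1 was 56.7 CPM in WT and 141 CPM in HFD (2.48, 1.46 to 4.18), and Ldha, lactate dehydrogenase, 372 and 582 CPM (1.56, 1.24 to 1.96). In endothelial-pericyte-like cells 10 were tested, with a median of 0.26 beside -0.04 for all genes. Pgk1, Ldha and Ndrg1 had intervals above 1, with ratios of 1.55, 1.43 and 1.78, and none had an interval below 1. The shares of all genes there were 6.77% above and 4.96% below 1.

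The list of VEGF-induced and tip cell genes held 16, of which 15 were tested in endothelial-like cells. The count was 2 higher and 0 lower by 2-fold, with a median log2 ratio of 0.13. Kcne3, a potassium channel subunit, was 14.6 and 72.8 CPM on 9 and 15 UMIs (4.996, 2.05 to 12.9), Plaur, the urokinase receptor, 209 and 510 CPM (2.44, 1.87 to 3.18), Odc1, of polyamine synthesis, 165 and 325 CPM (1.97, 1.43 to 2.71), and Mcam, an adhesion gene, 261 and 180 CPM (0.689, 0.468 to 0.990), although the Mcam interval included 1 under both other scalings. In endothelial-pericyte-like cells all 16 were tested, 6 with intervals above and 3 below 1, beside 6.77% and 4.96% of all genes there. The median was -0.02 beside -0.04 for all genes. Kcne3 and Plaur had ratios of 3.48 and 2.19 there, and Rcan1, a calcineurin inhibitor, had 2.63. The Notch ligand Dll4 was lower (0.660, 0.469 to 0.915), as were Cxcr4 (21 and 1 UMIs, 0.101, 0.00244 to 0.626) and the VEGF-family ligand Pgf (36 and 6 UMIs, 0.352, 0.121 to 0.845). In β-like cells 11 of the list were tested, 2 of them lower by 2-fold and none higher, with a median log2 ratio of -0.43. Dll4 was 1.51 and 0.675 CPM, Unc5b, a netrin receptor, 1.37 and 0.650 CPM, and the basement membrane gene Col4a1 8.07 and 4.23 CPM. Pgf was 8.09 and 10.3 CPM (1.27, 1.14 to 1.43), the opposite direction to Vegfa in the same cells.

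The caveola and fenestra list, which leaves out Plvap, went both ways in endothelial-like cells. All 10 genes were tested there, and 1 was lower by 2-fold and none higher, beside 15.6% and 4.1% of all genes. Intervals lay below 1 for 4 and above 1 for 2, beside 7% and 4.79% of all genes, and the median log2 ratio was -0.47 beside -0.15. Under TMM and median-of-ratios scaling 3 were below and 2 above 1, with medians of -0.33 and -0.31, and the rescaled shares of all genes are not given here. Cav2 was 157 and 58.2 CPM (0.371, 0.185 to 0.678), Cavin2 494 and 272 CPM (0.550, 0.406 to 0.734) and Ehd4 1402 and 902 CPM (0.644, 0.547 to 0.755). Cavin1 (1.51, 1.06 to 2.14) and Gpihbp1, the capillary anchor of lipoprotein lipase (1.23, 1.06 to 1.41), were higher. In endothelial-pericyte-like cells the median was -0.05, with intervals above 1 for Ehd2 (1.53) and Gpihbp1 (1.25) and none below 1. Among all genes there, 6.77% lay above and 4.96% below 1. In β-like cells 8 were tested, and the 2 past 2-fold, Cd36 and Cav2, rested on trace levels of at most 0.561 CPM. Ehd4 there was 6.26 and 8.42 CPM (1.34, 1.19 to 1.53).

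Of 22 other ligands and receptors, 14 were tested in endothelial-like cells and none passed 2-fold, with a median log2 ratio of 0.11. S1pr1, the sphingosine phosphate receptor that seals endothelial junctions, was 453 and 689 CPM (1.52, 1.23 to 1.87), and in endothelial-pericyte-like cells 423 and 733 CPM (1.73, 1.47 to 2.04). Plxnd1, a semaphorin receptor (0.610, 0.376 to 0.952), and Pdgfb, the ligand that recruits pericytes (0.593, 0.342 to 0.978), were lower. But under both other scalings none of the 14 kept an interval below 1 and 4 had one above 1. The rescaled shares of all genes are not given here. Sema3f and Thbs1 had intervals above 1 in endothelial-pericyte-like cells, with ratios of 1.75 and 1.37, and 17 were tested there with a median of 0.14. In β-like cells 14 were tested, 1 lower by 2-fold (Pdgfb, 0.876 and 0.433 CPM), with Notch1 and Notch4 at 0.628 and 0.651 and a median of -0.04.

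Across 20 sums of at least 20 cells, from 11 classes in 1 or both libraries, 11006 genes were ranked by how closely their log2(CPM + 1) followed each of 4 members. These correlations are across sums that share 2 libraries, and they describe where genes were found. Kdr was followed most closely by Flt1 (Pearson r = 0.998), Mmrn2 (0.996) and Cyyr1 (0.996), and Esm1 by Ptprb (0.982), Gpihbp1 (0.981) and Kdr (0.980). Vegfa was followed less closely, by Deptor (0.916), Plxnb2 (0.904) and Zfp704 (0.832), and Vegfb by Inha (0.836), 5730455P16Rik (0.833) and Agt (0.824). Between the ligands r was 0.667, and between Vegfa and Kdr it was -0.25.

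**Figure D5:**
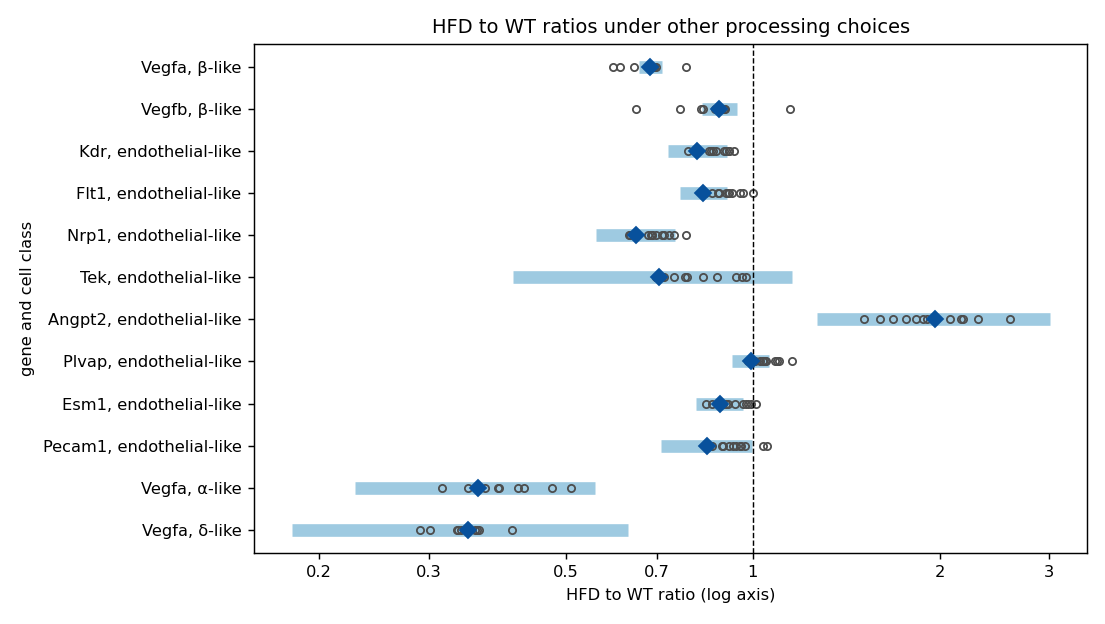
HFD to WT ratio of each member in its class on a log axis: blue diamonds are the values given in the text, pale bars their counting 95% intervals, and open circles the values under each of the other processing choices. Vegfa stays left of 1 in all 3 endocrine classes and Angpt2 right of it, Vegfb reaches 1.15 with equal cluster weights, and Plvap, Esm1 and Pecam1 have circles on both sides.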

How the data were processed

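The authors deposited raw UMI counts per gene and barcode, made with Cell Ranger (v3.0.2, per the submitters' processing notes) on mm10. Barcodes with at least 500 genes and at most 20% mitochondrial UMIs were kept, with no UMI maximum. The automatic threshold of Scrublet (scanpy 1.11.5) marked 12 WT and 0 HFD barcodes and was not used. The barcodes of the highest scores, 0.8% per 1000 barcodes, were left out instead (121 WT, 641 HFD). Square roots of values per 10000 UMIs were taken, and 2000 variable genes without hormones, Cck, members and listed genes gave 50 principal components and 15 neighbours for Leiden clustering (igraph 0.11.9, resolution 1). Clusters not plainly β-like were clustered again. Classes were named from marker lists, α-, δ- and PP-like cells by their dominant hormone, and the naming rules were settled after clusters had been seen. Members and lists were chosen with earlier results of these data known. Counts were summed per class and library. Lists cover genes with at least 10 UMIs in both libraries together, and a gene at 0 in 1 library was set against 3 counts. Genes outside the members are named if an interval excluded 1, up to 3 per list, class and direction, a rule extended to endothelial-pericyte-like cells after they were seen. Hif1a in β-like cells was named outside it, with its values known. Scaling alternatives used edgeR 4.0.16 (TMM) and DESeq2 1.42.0 (median of ratios). Intervals were tried on simulated Poisson counts without any spread between cells or mice, so that trial covers counting error only. Gene positions are from GENCODE on GRCm38, the assembly of mm10, and promoters from RefSeq.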

Additional observations from a re-analysis of the deposited data

Results flagged for a closer look

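With 1 library per group none of the differences between classes below was tested. In each, the counting interval of the HFD to WT ratio lay above 1 in one class and below 1 in another. Angpt2 had a ratio of 1.96 in endothelial-like and 1.51 in endothelial-pericyte-like cells, against 0.581 (0.387 to 0.866) in β-like cells, where it was under 1 CPM. Pecam1 had a ratio of 1.30 in endothelial-pericyte-like cells against 0.844 in endothelial-like cells, where its interval did not stay below 1 under any of the 11 other choices that gave one, and 2.12 (1.19 to 3.95) in β-like cells on 17 WT and 45 HFD UMIs. Plvap had a ratio of 1.17 in endothelial-pericyte-like and 2.64 (1.004 to 6.24) in fibroblast-like cells, against 0.0992 (0.00246 to 0.580) in ductal-like cells, on 48 WT and 1 HFD UMIs there. Of the 10 endothelial markers, 9 were found in WT ductal-like cells (212 CPM) and 2 in HFD ones (110 CPM). The part of endothelial RNA in the ductal-like Plvap ratio was not tested. In barcodes outside the filters, which no comparison used, Pecam1 stood at 9.38 CPM in HFD (15 UMIs) and 1.49 CPM in WT (3 UMIs).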

How the results depend on the processing

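No paired analysis was possible because each group holds 1 library, and no library could be left out. Vegfa kept a ratio below 1 under all alternatives in β-like (14), α-like (11) and δ-like (11) cells, as did Kdr, Flt1, Nrp1 and Tek under all 12 in endothelial-like cells, and Angpt2 stayed above 1 under all 12. Intervals, where given, lay on the same side of 1 throughout for Vegfa and Nrp1, under 10 of 11 alternatives for Angpt2, 8 for Kdr, 5 each for Flt1 and Esm1 and 0 for Pecam1. Endothelial-pericyte-like cells alone were not rescaled. At Leiden resolution 0.5 the vessel clusters merged, so endothelial-like cells alone gave no value there. The cause of the following differences was not tested. In β-like cells Vegfa was 0.596 with at most 15000 UMIs per barcode (228 WT cells), 0.643 without hormone and mitochondrial genes, 0.610 at 5000 to 30000 UMIs and 0.780 with clusters weighted equally. Vegfb was 0.647 with at most 15000 UMIs, 0.825 with cells weighted equally, 0.763 at 5000 to 30000 UMIs and 1.15 with clusters weighted equally. In endothelial-like cells TMM and median-of-ratios scaling gave 0.917 and 0.925 for Flt1, 0.973 and 0.983 for Esm1 and 1.09 and 1.10 for Plvap, and moved the median log2 ratio of genes with at least 100 UMIs from -0.04 to 0.10 and 0.11. Under both scalings 4 in place of 2 VEGF-induced and tip cell genes were higher by 2-fold, 1 in place of 2 hypoxia response genes was lower, and 4 in place of 1 of the other ligands and receptors had an interval above 1. Shares of all genes under these scalings are not given here. Without doublet removal Flt1 was 0.910, Esm1 0.994 and Plvap 1.08. With at least 1000 genes (22 HFD cells) Flt1 was 0.999, Nrp1 0.780 and Esm1 0.965. Gating by endothelial markers gave 0.932 for Kdr, 0.963 for Flt1 and 1.05 for Pecam1. Cells of low insulin share gave 0.915 for Kdr and 1.16 for Plvap, and cells weighted equally 1.01 for Esm1. Both vessel clusters together, an alternative chosen after seeing the data like rescaled lists, equal cluster weights, first-pass clusters and the insulin maximum for α-like and δ-like cells, gave 0.914 for Kdr, 0.952 for Flt1 and 1.04 for Pecam1.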

Other observations

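A cluster left unnamed for its few UMIs (70 WT and 2 HFD cells, led by Malat1 and other nuclear RNAs) held Vegfa at 278 CPM (182 to 407, 26 UMIs) and 0 UMIs of Vegfb. A second unnamed cluster, led by immunoglobulin and MHC class II genes (12 WT and 50 HFD cells), held 22.4 CPM of Vegfa (9.001 to 46.1) and 19.2 CPM of Vegfb.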
